A study of Mus musculus with 56 samples.

Results

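The 10 genes *Fos*, *Fosb*, *Fosl2*, *Jun*, *Junb*, *Jund*, *Egr1*, *Ier2*, *Atf3* and *Dusp1* were chosen by name, as immediate-early genes (IEGs) and members of the AP-1 transcription factor family, from the 47069 genes of a single-cell (SC) read-count table. The cells came from primary pituitary cultures of female C57BL/6 mice aged 10 to 12 weeks, cycling at random, with 5 pituitaries pooled per sample. The cultures were kept for 4 days, were untreated, and were then trypsinized and preserved in RNA-Best, a preservative for intact cells. Each cell was isolated in its own chamber of a Fluidigm microfluidic chip for small cells, SMART-Seq v4 was used to make full-length cDNA, and ERCC spike-in RNAs were added. The labels name 1 untreated culture and no separate animals, so the wells are cells of 1 sample. No difference between sets of wells has a replicate check, and no test was made.

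Of the 56 wells, 46 held at least 100000 reads assigned to genes and were used. Their gene counts ranged from 111195 to 12563300 with a median of 1192620, and the share of all counts taken by spike-ins ranged from 0.144% to 66.1%. Values are CPM, the counts of a gene per 1000000 gene counts without spike-ins, and a gene was called detected in a well at 1 CPM. A leading hormone was given to each well by the highest CPM among *Prl* (prolactin), *Gh* (growth hormone), *Pomc* (the precursor of corticotropin) and the beta subunits of the other pituitary hormones. It was *Prl* in 37 wells, *Pomc* in 5 and *Gh* in 4. Wells C10 and C11 had libraries that were nearly alike, with a Pearson r of 0.947 for log2(CPM + 1) over 5757 other genes, and the correlations, the wells with *Fosb* and the values by plate column are given without them too.

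IEGs are transcribed from factors already present in the cell, so that their RNA appears soon after a stimulus and before any new protein is made. Proteins of the Fos family pair with proteins of the Jun family to form AP-1, which binds DNA at the element TGANTCA (TRE), and ATF family partners shift the pair towards the element TGACGTCA (CRE). In the pituitary, releasing hormones induce these genes through MAP kinases and cyclic AMP, and mechanical or enzymatic handling of a tissue is also known to induce them.

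Promoter sequence was available in the RefSeq-derived table (build GRCm38.p6) for 8 of the 10 genes, all but *Egr1* and *Ier2*, and the 250 bases before the start site were searched on both strands. The 5-base core of the CRE, TGACG, was present in 5 of 8 windows, those of *Fos*, *Fosb*, *Junb*, *Atf3* and *Dusp1*, and in 17.8% of all 32851 windows of that length. A whole CRE was found in 1 window, that of *Dusp1*, against 1.55% of all windows, and its first base lay 143 bases before the start. The GC box GGGCGG occurred in 6 of 8 windows against 32.7% of all, and TATAAA in 1 of 8, that of *Fos*, against 12.4%. No window held a TRE, present in 6.75% of all, or a CArG box, the site of serum response factor, present in 1.47%. The core CRE of *Atf3* lay 7 bases before the start. The windows of *Fosl2*, *Atf3* and *Dusp1* begin at a start site inside the longer gene model of GENCODE M21, and that of *Jund* lies 1210 bases upstream of the M21 gene. These matches describe letters in the reference and not binding. Of *Jun* and *Junb*, only the window of *Junb* holds a TGACG, and that of *Dusp1* holds the whole CRE. The upstream sequences are shown for *Fos* and *Fosb*, which were nested in wells at 10 CPM, and for *Jun*, *Junb* and *Dusp1*. They run 5′ to 3′ on the strand of the gene, without bases in its annotated exons, from chr12:85473640-85473889 (plus strand), chr7:19310052-19310295, chr4:95052223-95052472, chr8:84978749-84978998 and chr17:26508520-26508722 (all minus strand) in the order printed. Capitals mark every TGACG on either strand, and the longest run of capitals, in *Dusp1*, is the whole CRE.
Fos: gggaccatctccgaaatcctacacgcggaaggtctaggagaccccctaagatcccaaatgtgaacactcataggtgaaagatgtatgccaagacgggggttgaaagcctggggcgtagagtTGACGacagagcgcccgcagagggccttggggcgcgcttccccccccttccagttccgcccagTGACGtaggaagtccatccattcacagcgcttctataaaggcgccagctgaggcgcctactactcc
Fosb: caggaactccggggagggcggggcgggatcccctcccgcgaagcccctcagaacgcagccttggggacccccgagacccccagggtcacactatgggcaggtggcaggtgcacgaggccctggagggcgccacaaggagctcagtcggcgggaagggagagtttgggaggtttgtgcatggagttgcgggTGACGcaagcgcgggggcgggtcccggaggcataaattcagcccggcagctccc
Jun: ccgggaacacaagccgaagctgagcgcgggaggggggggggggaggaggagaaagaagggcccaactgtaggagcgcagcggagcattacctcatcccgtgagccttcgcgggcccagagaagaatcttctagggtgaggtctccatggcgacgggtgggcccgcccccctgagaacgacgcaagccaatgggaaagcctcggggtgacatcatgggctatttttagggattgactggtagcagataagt
Junb: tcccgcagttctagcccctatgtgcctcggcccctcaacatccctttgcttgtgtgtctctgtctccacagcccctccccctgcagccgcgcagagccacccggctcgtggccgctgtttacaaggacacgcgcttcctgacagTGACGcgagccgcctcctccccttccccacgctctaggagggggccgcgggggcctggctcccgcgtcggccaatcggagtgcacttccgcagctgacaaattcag
Dusp1: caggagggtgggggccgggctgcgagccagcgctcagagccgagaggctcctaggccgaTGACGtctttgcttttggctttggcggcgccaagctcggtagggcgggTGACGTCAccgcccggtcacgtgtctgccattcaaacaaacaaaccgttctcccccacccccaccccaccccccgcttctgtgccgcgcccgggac

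All 10 genes were detected, and a well had a median of 7 of them at 1 CPM (range 1 to 10). The summed CPM of the 10 genes ranged from 29.7 in its lowest well to 9158 in B12, with a median of 385. At 100 CPM or more, 18 wells held none of the genes and 12 held 1, while 5 wells held 5 or more. In all, 30 wells held 1 gene or none at 100 CPM. This count depends on the limit, since at 10 CPM a well held a median of 5 of the 10 genes (range 1 to 10). Genes detected in at least 50% of wells had median levels that were themselves low, with a median of 8.71 CPM. The share of all genes at 100 CPM in each well was not calculated, so the low count is not shown to be particular to these genes. On the length-scaled TPM axis, made with M21 exon lengths, the medians ran from *Fos* (18.2 TPM) and *Ier2* (16.1) over *Atf3* (8.56), *Junb* (7.34), *Jund* (6.69), *Jun* (4.35), *Egr1* (3.89) and *Dusp1* (3.32) to *Fosl2* (0.588) and *Fosb* (0). The interquartile ranges of neighbours in this order overlapped throughout, with *Fos* at 4.35 to 142 TPM and *Fosb* at 0 to 1.44. The spread between wells was wide: the SD of log2(CPM + 1) had a median of 2.89 over the 9 genes that were detected in at least 50% of wells, and of 2.27 over all 5766 genes so detected. The 5 highest wells carried a median of 72.0% of the summed CPM of each of the 9 genes, against 54.7% for all such genes.

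**Figure D1:**
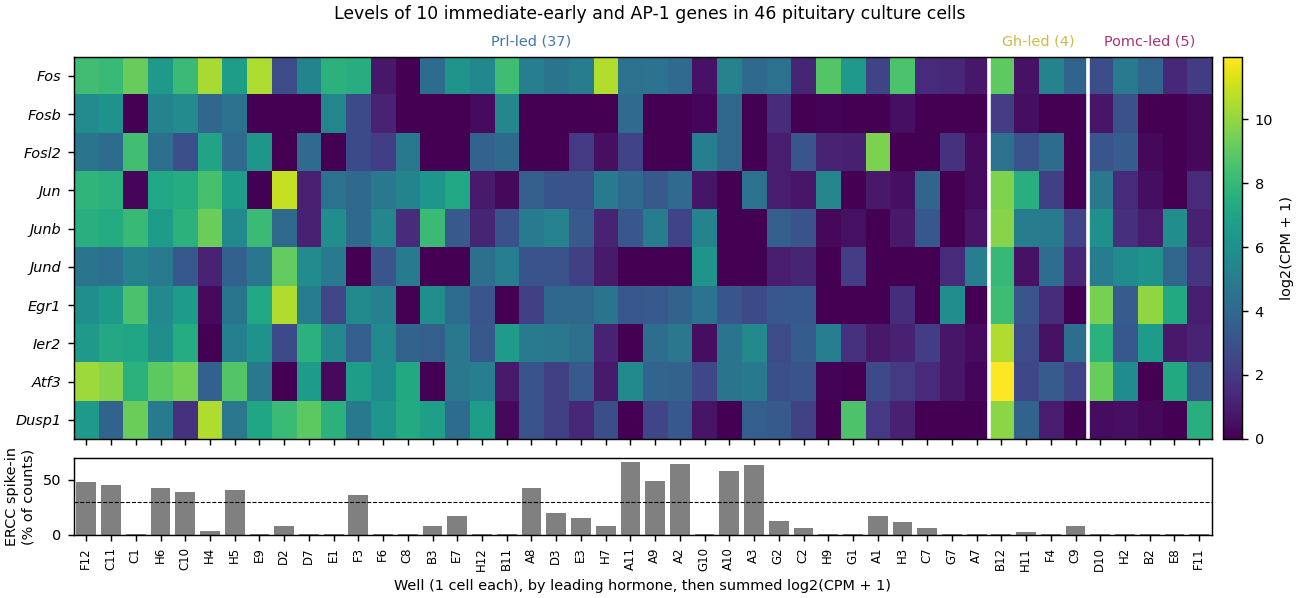
Heat map of log2(CPM + 1) for the 10 genes (rows) in the 46 wells (columns), with the wells grouped by leading hormone and ordered by their summed value, and below it the share of counts from ERCC spike-ins in percent, with a dashed line at 30%. The 5 wells with at least 5 genes at 100 CPM are C10 and C11, which have a high spike-in share, and B12, C1 and H4.

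Among the Fos family, *Fos*, the founding member, was the most widely detected, in 41 of 46 wells (89.1%, exact Clopper-Pearson 95% interval 76.4% to 96.4%, which covers counting error only). Its level ranged from 0 to 1554 CPM in H7 with a median of 31.2, and it reached 100 CPM in 14 wells. E9 (1436 CPM) and H4 (1335 CPM) followed H7, and the next well, C1, had 588 CPM. *Fosb*, a paralogue of *Fos*, was detected in 15 wells (32.6%, 19.5% to 48.0%), with a maximum of 70.5 CPM in C11. It reached 100 CPM in 0 of 46 wells, for which the exact interval reaches 7.71% and the limit of 3 wells is 6.52%. *Fosl2*, which encodes the Fos-related antigen Fra-2, was detected in 28 wells with a median of 3.93 CPM. Its highest value was 785 CPM in A1, where no other gene of the 10 exceeded 5.24 CPM, and it passed 100 CPM in C1 (324) and H4 (125) as well.

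The 3 Jun genes shared some of their high wells. At 100 CPM, *Jun* and *Junb* were both high in 5 wells, of 10 for *Jun* and 8 for *Junb*, and all 3 genes were high in B12. *Jun* was detected in 30 wells (65.2%, 49.8% to 78.6%) with a median of 10.3 CPM and reached 1891 CPM in D2 and 795 CPM in B12. *Junb*, whose protein is the weaker activator of the family in many settings, was detected in 37 wells (80.4%, 66.1% to 90.6%) with the same median of 10.3 CPM, and its highest wells were B12 (879) and H4 (617). *Jund*, the member that is usually expressed without a stimulus, was detected in 31 wells with a median of 7.62 CPM, and it passed 100 CPM only in D2 (539) and B12 (257). Over wells, *Jund* had a Spearman rho of 0.42 with gene counts and of -0.56 with spike-in share, while *Jun* had -0.26 and 0.33, so that both depth and spike-in share moved with these levels in opposite directions; their part in the levels was not tested. Counts of *Jund* were not whole numbers in 15 wells. Exons of *Jun*, *Junb*, *Jund* and *Dusp1* overlap exons of *Junos*, *Prdx2*, *Gm11175* and *Ergic1* on the opposite strand, and reads of these partners cannot be told apart from theirs, because the strand setting of the counting is not given in the sources used here.

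*Egr1*, a zinc finger IEG that takes part in the gonadotropin response to GnRH, was detected in 36 wells (78.3%, 63.6% to 89.1%) with a median of 11.6 CPM. It exceeded 100 CPM in 7 wells, led by D2 (1475), B2 (998) and D10 (721). *Ier2*, a small nuclear IEG product, was detected in 38 wells with a median of 18.7 CPM and reached 1473 CPM in B12, while its next wells, D7 and D10, had 200.5 and 200.3 CPM. *Atf3*, a stress-induced factor of the ATF family, was detected in 36 wells with a median of 11.0 CPM. It had the highest value of all 10 genes, 3975 CPM in B12, and the next were F12 (1165) and C11 (888). *Dusp1*, a phosphatase that switches off MAP kinases, was detected in 32 wells (69.6%, 54.2% to 82.3%) with a median of 8.15 CPM, and it exceeded 100 CPM in 12 wells, with 1471 CPM in H4 and 936 CPM in B12. Each of these 4 genes had its highest value in B12, D2 or H4, and no well was the highest for more than 3 of the 10 genes.

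To ask which of the genes varied together over cells, the Spearman rho of CPM over the 46 wells was calculated for the 45 pairs of genes. The median was 0.29, with a range from -0.03 for *Jun* and *Jund* to 0.53 for *Junb* and *Egr1*, and 1 of 45 pairs was below 0. All pairs of the 5766 widely detected genes had a median of 0.139. Of the 36 pairs among the 9 widely detected genes, which leave out *Fosb*, 1 (2.78%) reached 0.5, where 2.94% of all gene pairs did, and 17 (47.2%) reached 0.3, where 21.1% of all gene pairs did. Weak positive correlation was thus the common state and strong correlation was no more frequent than among genes at large. The points share library depth, spike-in share, plate position and hormone content.

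*Junb* and *Egr1* were the closest pair, followed by *Fosl2* with *Atf3* (0.49), *Jun* with *Junb* (0.46), *Junb* with *Atf3* (0.45), *Egr1* with *Ier2* (0.45) and *Ier2* with *Atf3* (0.45). *Atf3* had the highest median rho with the other 9 genes, 0.41, and *Egr1* the lowest, 0.22. *Fos* had a median rho of 0.25. Its rho was 0.03 with *Jund*, 0.14 with *Egr1*, 0.19 with *Jun* and 0.21 with *Atf3*, and its highest values were 0.38 with *Ier2* and 0.37 with *Fosb*. In the scatter of *Jun* against *Jund*, both genes reached 100 CPM in 2 wells, D2 and B12. *Jun* had 10 such wells in all, and in 5 of the 8 others *Jund* lay between 8.86 and 30.0 CPM.

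**Figure D2:**
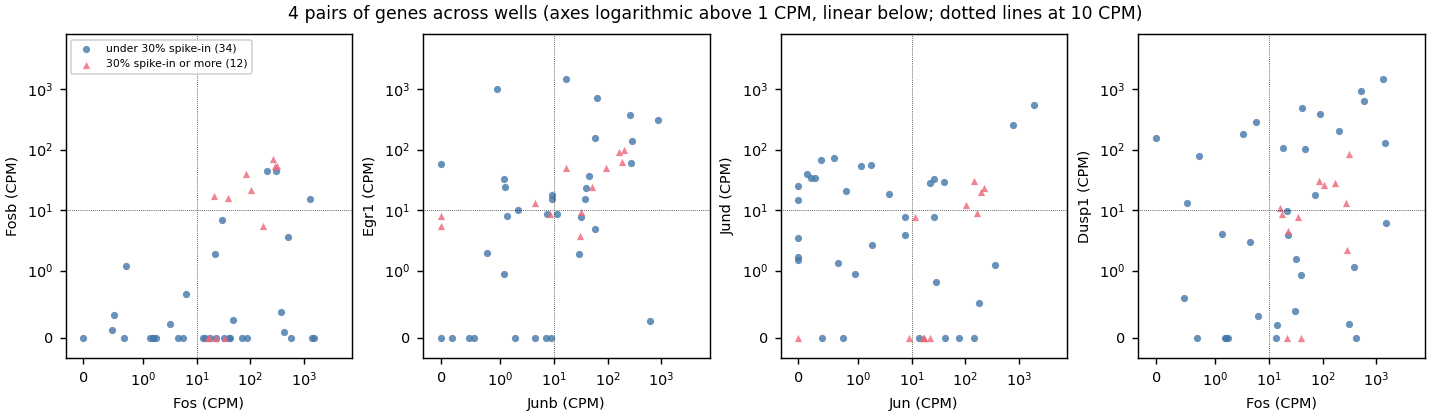
CPM of *Fos* and *Fosb*, *Junb* and *Egr1*, *Jun* and *Jund*, and *Fos* and *Dusp1* in the 46 wells, with axes that are logarithmic above 1 CPM and linear below, dotted lines at 10 CPM, circles for the 34 wells under 30% spike-in and triangles for the 12 wells of 30% or more. Every well with *Fosb* at 10 CPM lies to the right of 10 CPM of *Fos*, and 9 wells have both *Jun* and *Jund* at 10 CPM, of 23 for *Jun* and 20 for *Jund*.

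The correlation depended on which wells were included. In the 34 wells with under 30% spike-in counts the median rho of the 45 pairs was 0.20. Of the 36 pairs, 1 reached 0.5, *Fosl2* with *Atf3* at 0.52, where 2.48% of all gene pairs did, and 12 (33.3%) reached 0.3, where 17.1% of all gene pairs did. In the 12 wells with 30% or more the median was 0.72, and 32 of the 36 pairs (88.9%) reached 0.5, where 34.9% of all gene pairs did. These 12 wells were all led by *Prl* and hold the wells C10, C11, F12, H5 and H6. Without those 5, the other 7 wells of high spike-in share had a median rho of 0.01, and 3 of 36 pairs (8.33%) reached 0.5, where 28.4% of all gene pairs did. Without C10 and C11 alone, the median rho over the 44 other wells was 0.27. Over the 41 wells without all 5 the median was 0.19, 0 of 36 pairs reached 0.5, where 2.77% of all did, and 10 (27.8%) reached 0.3, where 20.0% of all did.

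**Figure D3:**
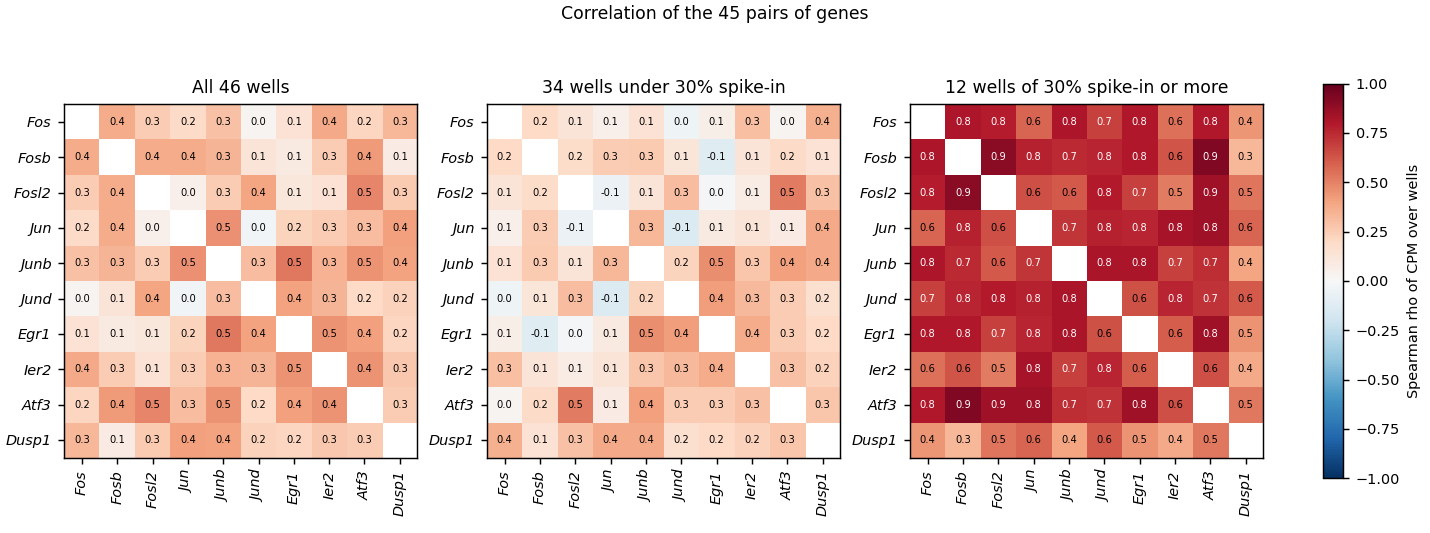
Spearman rho of CPM for the 45 pairs of genes, in colour from -1 to 1 and printed to 1 decimal, over all 46 wells, the 34 wells under 30% spike-in and the 12 wells of 30% or more. The median is 0.29, 0.20 and 0.72 in turn, and *Dusp1* has the palest column in the last panel.

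**Figure D4:**
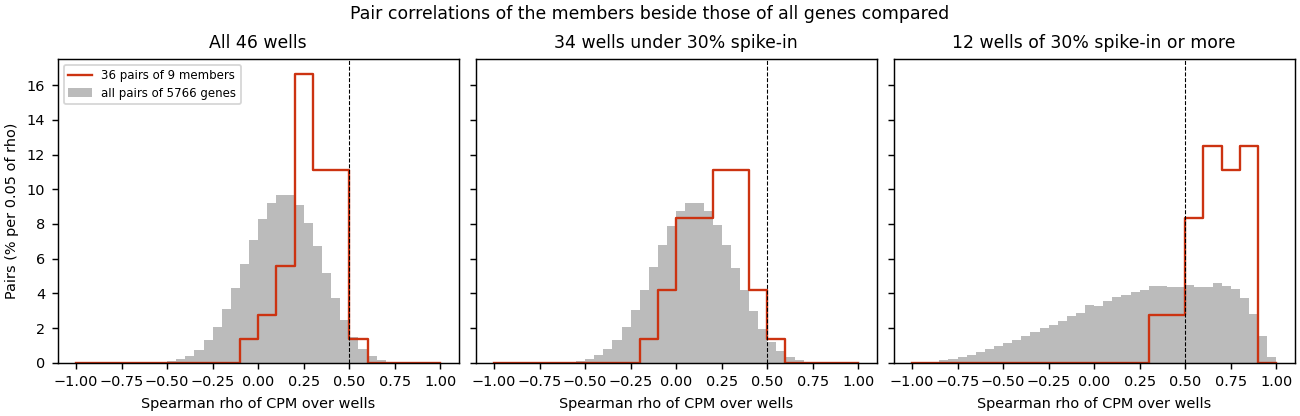
Share of gene pairs, in percent per 0.05 of rho, by Spearman rho over the same 3 sets of wells, for all pairs of 5766 genes (grey bars) and the 36 pairs of the 9 widely detected members (red line), with a dashed line at 0.5. The red line lies to the right of the grey bars in each panel, by most in the 12 wells of high spike-in share, where the grey bars are also wide.

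The 5 wells C10, C11, F12, H5 and H6 had spike-in shares from 38.6% to 47.9% and gene counts from 129642 to 460210. *Atf3* lay at 697, 888, 1165, 426 and 490 CPM in them in that order, and its median in the 41 others was 7.60 CPM. *Fosb* lay at 53.1, 70.5, 54.0, 21.7 and 40.0 CPM, against a median of 0. *Jun* lay between 102 and 224 CPM against a median of 7.65, *Fos* between 85.1 and 316 against 22.9, and *Junb* between 52.2 and 204 against 8.73. Only 2 of the 41 other wells reached the lowest of the 5 in *Atf3* and 2 in *Fosb*, while 25 did in *Dusp1*, which spanned 2.21 to 84.8 CPM. The share of all genes that set the 5 wells apart as far was not calculated, and the 5 were chosen after seeing the data. The separation is therefore not shown to be particular to these genes. All 10 genes were at 10 CPM or more in 4 wells, and all 4 belong to this set. At this depth 10 CPM is few counts, such as 3 each of *Fosl2* and *Jund* in F12 and 4 of *Fosl2* in H6. The 5 wells were alike in the rest of their transcriptome too. Over 5757 other genes, the 10 pairs of the 5 wells had a Pearson r of log2(CPM + 1) from 0.749 to 0.947 (median 0.799). The 1025 other pairs of wells had a median of 0.414 and a maximum of 0.760. The part of shared RNA content in the joint levels of the 5 wells was not tested.

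The 5 wells with at least 5 genes at 100 CPM differed in which genes those were. B12 held 8, all but *Fosb* and *Fosl2* (21.7 CPM). C1 held 7, with *Dusp1* at 624.5, *Fos* at 588, *Egr1* at 372.5, *Fosl2* at 324.5, *Junb* at 262, *Atf3* at 195 and *Ier2* at 132 CPM, and it had *Jun* at 0.15 CPM. H4 held 5, *Dusp1*, *Fos*, *Junb*, *Jun* and *Fosl2*, with *Ier2* at 0 and *Egr1* at 0.25 CPM. C10 and C11 both held *Atf3*, *Fos*, *Junb*, *Jun* and *Ier2*. *Fos* and *Junb* were thus high in all 5 wells, and *Jun*, *Egr1* and *Ier2* were each missing from at least 1.

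In H4, *Prl* took 1.44% of gene counts, and all 5 endothelial markers, *Cdh5*, *Emcn*, *Kdr*, *Pecam1* and *Plvap*, were detected with a summed 8855 CPM, while *Cdh5*, *Kdr*, *Plvap* and *Emcn* were at 0 in B12, C1, C10 and C11. These markers were not limited to wells with many IEGs, since F6 had all 5 (979 CPM summed) with 0 of the 10 genes at 100 CPM, and H7 had 1 of the 5 (2041 CPM) with 1 gene at 100 CPM. In B12, *Gh* took 1.05% and *Prl* 0.229% of gene counts, so its hormone label rests on little hormone RNA, and 13198 genes had a count. Its summed level of the 7 macrophage markers and of the 6 stromal markers was within the range of the wells with fewer IEGs, which reached 449 and 512 CPM. The like wells C10, C11, F12, H5 and H6 held 4, 4, 5, 5 and 4 of the 7 macrophage markers at 1 CPM. No other of the 46 wells held more than 3. The summed level of these markers in the like wells was 99.2 to 239 CPM, below the 449 CPM of H11, and *Ptprc*, *Csf1r* and *Adgre1* were at 0 in C10 and C11. Of the 5 endothelial markers the like wells held 1, 1, 3, 3 and 4 at 1 CPM, in the same order, while D3, not among them, held 3. At the depth of the like wells 1 count already passes 1 CPM, such as 2.21 CPM for 1 count of *Dusp1* in C10. In C1 *Prl* took 43.2%. The part of cell type in the high wells was not tested.

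In 12 wells exactly 1 of the genes reached 100 CPM. This was *Fos* in 5 wells, H7 (1554), H9 (428), H3 (383), B11 (307) and F3 (171 CPM). It was *Dusp1* in 3, G1 (392), F11 (184) and H12 (103), *Jun* in 2, H11 (183) and E7 (144), *Fosl2* in A1 and *Egr1* in B2. *Junb*, *Ier2*, *Atf3* and *Jund* were never the only gene at that level. Of the 14 wells with *Fos* at 100 CPM, 5 also had *Dusp1* there, 7 *Junb*, 6 *Jun*, 6 *Atf3*, 4 *Ier2* and 3 *Egr1*. D2 showed the opposite arrangement to H7. It had *Jun* at 1891, *Egr1* at 1475, *Jund* at 539 and *Dusp1* at 283 CPM with *Fos* at 5.70 CPM, *Fosb*, *Fosl2* and *Atf3* at 0, and *Junb* at 16.5 CPM.

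At 10 CPM, *Fosb* was nested in *Fos*. All 10 wells with *Fosb* at 10 CPM had *Fos* at 10 CPM (100%, exact interval 69.2% to 100%), and 23 of the 36 other wells did (63.9%, 46.2% to 79.2%). Of the 5766 widely detected genes, 10.3% were at 10 CPM or more in all 10 of these wells, so such nesting was not rare. The lowest *Fos* value in the 10 wells was 21.3 CPM and the median 237 CPM. In the same wells *Jun*, *Ier2* and *Atf3* were each at 10 CPM in 8 of 10 and *Egr1* in 5 of 10, the last against 19 of 36 others. The reverse did not hold, since 23 of the 33 wells with *Fos* at 10 CPM had less *Fosb*, among them H7 and E9, which had *Fosb* at 0. Of the 10 wells, 5 were the like wells above, and 7 were of 30% spike-in or more. With 100000 counts drawn from each well the nest was 11 of 11, and without C10 and C11 it was 8 of 8. At 1 CPM it was 14 of 15, against 27 of 31 other wells, so it did not hold at that limit. At 20 CPM all 7 wells with *Fosb* had *Fos* at that level, and all 7 had *Ier2* there too.

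Between hormones, the 5 *Pomc*-led wells all had *Fos* below the *Prl*-led median, and 3 of them had *Egr1* at 100 CPM or more. In the 5 *Pomc*-led wells *Fos* was at 14.2 CPM in B2, 6.27 in D10, 1.52 in E8, 3.27 in F11 and 30.0 in H2, with 0 of 5 at 100 CPM. The 37 *Prl*-led wells ranged from 0 to 1554 CPM with a median of 39.2, and 13 (35.1%, exact interval 20.2% to 52.5%) reached 100 CPM. The *Pomc*-led wells lie in the lower part of that range, and the exact interval for 0 of 5 reaches 52.2%, so the intervals overlap. *Egr1* in the same order was at 998, 721, 153, 0.95 and 10.1 CPM, so 3 of 5 reached 100 CPM (60.0%, 14.7% to 94.7%), against 3 of 37 *Prl*-led wells (8.11%, 1.70% to 21.9%), whose median was 13.1 CPM. *Pomc* itself in the same order was at 298862, 51676, 356901, 180795 and 59274 CPM. The *Prl*-led wells A10, D7 and E1 held more *Pomc* than D10 and H2, at 73004, 70823 and 60788 CPM. In these *Prl*-led wells *Fos* was at 39.2, 41.7 and 204 CPM and *Egr1* at 7.84, 32.4 and 4.85 CPM. The comparison is therefore by leading hormone and not of all *Pomc*-rich cells with the rest.

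The ratio of the *Pomc*-led to the *Prl*-led median was at least 2 for 3 genes, where 40.1% of all genes compared were that much higher. They were *Egr1* (11.7), *Jund* (8.29) and *Atf3* (4.54). It was 0.5 or less for 6 genes, where 27.7% of all were that much lower, namely *Dusp1* (0.03), *Fosl2* (0.06), *Jun* (0.13), *Fos* (0.16), *Junb* (0.23) and *Ier2* (0.43). *Jund* in B2, D10, E8, F11 and H2 was at 66.5, 32.0, 14.5, 2.64 and 55.6 CPM. *Dusp1* was under 0.5 CPM in 4 of these wells and at 184 CPM in F11, so 1 well stood far above the rest. The 5 *Pomc*-led wells all had at least 1314330 gene counts and at most 0.866% spike-in, while the *Prl*-led wells ran from 0.144% to 66.1%. Against *Prl*-led wells with at least 1000000 gene counts the ratio was 0.13 for *Fos*, 31.5 for *Egr1*, 9.30 for *Jund*, 11.5 for *Atf3* and 0.05 for *Dusp1*, and that for *Jun* turned to 2.34. With 1 of B2, E8, F11 or H2 left out in turn, the ratio rose above 1 for at least 1 of *Fosl2*, *Junb* and *Ier2*, to 1.129, 3.197 and 2.581 at most, so the order of the medians of these 3 rests on single wells. Plate columns 4 to 6 and 10 to 12 hold only D10 and F11 of the *Pomc*-led wells. Within these columns the ratio for *Dusp1* turned to 4.68, and that for *Fos* was 0.05. In columns 1 to 3 and 7 to 9, which hold B2, E8 and H2, the ratio for *Fos* was 0.62.

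In the 4 *Gh*-led wells B12, C9, F4 and H11, in that order, *Jun* was at 795, 0, 3.75 and 183 CPM and *Junb* at 879, 4.42, 29.5 and 31.3 CPM. *Egr1* was at 303, 0, 1.87 and 7.81 CPM. B12 was the highest of the 4 in each of these, and the others overlapped the *Prl*-led wells. The ratio to the *Prl*-led median was at least 2 for 4 genes (*Jun*, *Fosl2*, *Junb* and *Jund*), where 43.4% of all genes were that much higher, and at most 0.5 for *Egr1* alone, where 19.9% were that much lower. Without B12 the counts became 2 and 7. The ranges of the *Gh*-led and *Prl*-led wells overlapped for all 10 genes. *Gh* itself was at 307675 CPM in C9 and at 10514, 5384 and 12350 CPM in B12, F4 and H11. The *Gh* label of B12, F4 and H11 thus rests on little hormone RNA, and the *Prl*-led well A11 held more *Gh*, 202245 CPM. The ratios are therefore not a comparison of *Gh*-rich cells with *Prl*-led cells.

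**Figure D5:**
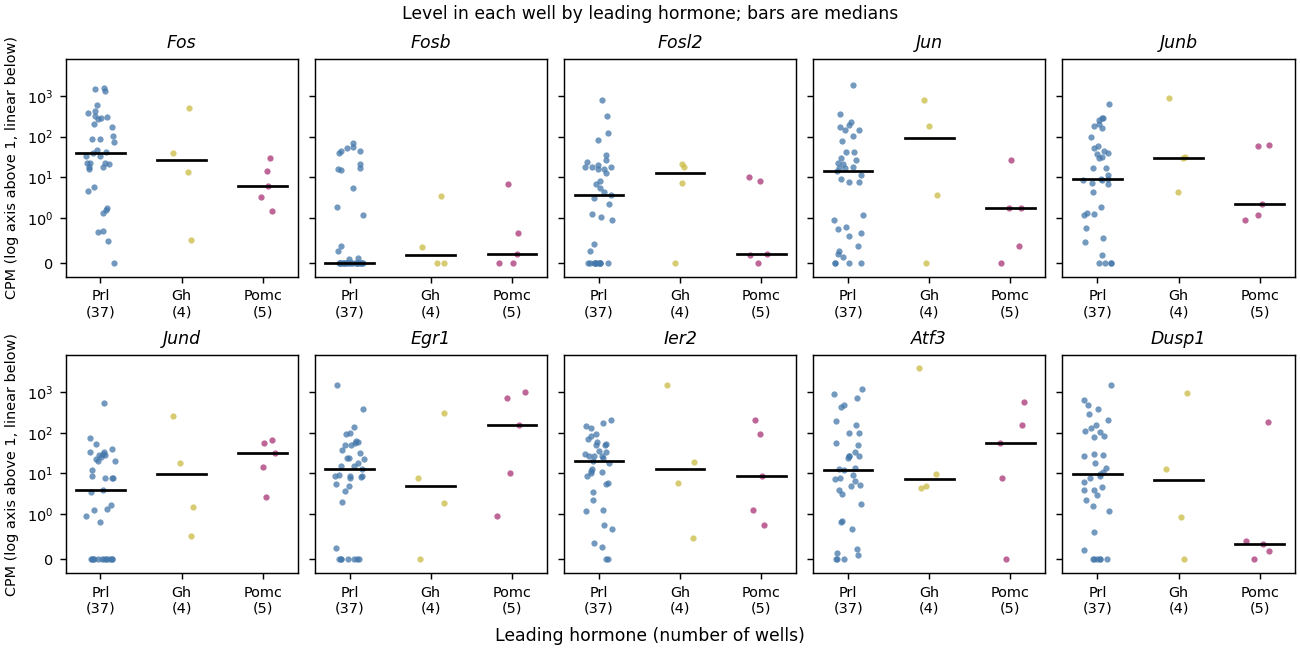
CPM of each gene in each well (points) by leading hormone, on an axis that is logarithmic above 1 CPM and linear below, with bars at the medians of 37 *Prl*-led, 4 *Gh*-led and 5 *Pomc*-led wells. *Egr1* is above 100 CPM in 3 *Pomc*-led wells, *Fos* in none of them, and the highest *Gh*-led point of *Atf3*, at 3975 CPM, is B12.

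The 2 sets of plate columns also differed in these genes. They were not alike in depth, since all 10 wells left out for low gene counts lay in columns 4 to 6 and 10 to 12. The comparison therefore covers only the deeper wells of that set, and what depth adds to the contrast was not tested. *Fosb* reached 10 CPM in 9 of 17 wells of columns 4 to 6 and 10 to 12 and in 1 of 29 wells of columns 1 to 3 and 7 to 9. *Atf3* had medians of 51.1 and 6.67 CPM in these sets, *Fosl2* 16.1 and 0.27 CPM, and *Junb* 45.1 and 7.35 CPM. Every one of the members had its higher median in columns 4 to 6 and 10 to 12. The share of all genes that differ as much between the sets was not calculated, so the contrast is not shown to be particular to these genes. The like wells C10, C11, F12, H5 and H6 all lie in the first of the 2 sets, as does B12. The levels by plate column were not calculated without all 5 like wells. The median rho of the 45 pairs was 0.41 in the first set, with 13 of 36 pairs (36.1%) at 0.5 where 8.64% of all pairs were, and 0.16 in the second, with 0 of 36 pairs where 4.8% of all were. Without C10 and C11, *Fosb* reached 10 CPM in 7 of 15 wells of the first set, the medians there were 33.2 CPM for *Atf3*, 16.1 for *Fosl2* and 39.8 for *Junb*, and the median rho was 0.39, with 11 of 36 pairs (30.6%) at 0.5 where 9.53% of all pairs were. Position and cell content cannot be told apart, since each well holds 1 cell.

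The genes most like each member over the 46 wells were then sought. *Fos* was nearest to *Psmd4* (rho 0.61), *Fbl* (0.59) and *Fip1l1* (0.57), and its nearest member, *Ier2*, ranked 115 of 5765 genes. *Junb* was nearest to *Trp53* (0.72), which encodes the tumour suppressor p53, and *Egr1* ranked 69 for it, while *Junb* ranked 29 for *Egr1*, whose nearest gene was *Snx10* (0.66). *Jun* was nearest to *Rbpj* (0.65), the DNA-binding factor of Notch signalling, and *Junb* ranked 30 for it. The nearest genes of the others were *Stk16* for *Fosb* (0.77), *Clptm1* for *Dusp1* (0.74), *Mrps18b* for *Jund* (0.73), *Shmt2* for *Atf3* (0.71), *Ap1b1* for *Ier2* (0.69) and *Ranbp1* for *Fosl2* (0.66). None of the 30 genes in the 3 nearest places of the 10 members was itself a member, and 9 of the 30 kept a place after each well was thinned to 100000 counts.

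A list of 57 other IEG, AP-1 and growth-factor response genes was examined in the same way. Of these, 55 were found in the table, 24 were detected in at least 50% of wells and 4, *Batf3*, *Egr3*, *Egr4* and *Dusp4*, were detected in no well. *Egr2* was detected in 1 well. The median rho with the 10 genes had a median of 0.187 over the 24 and of 0.139 over 5757 other genes, whose 95th percentile was 0.328, and 4 of the 24 (16.7%) lay above that. The highest on the list were *Gadd45a* (0.43), *Mafg* (0.37), *Batf2* (0.36), *Btg2* (0.35), *Nr4a2* (0.34) and *Nfkbia* (0.33). *Batf2* and *Nr4a2* are not among the 24, being detected in 7 and 19 wells with maxima of 10.0 and 142 CPM. The rho of *Batf2* thus rests on few wells and low values. *Gadd45a* and *Btg2* are growth arrest genes and *Mafg* encodes a small Maf factor. In the 34 wells under 30% spike-in the values were 0.29 for *Gadd45a*, 0.33 for *Mafg*, 0.11 for *Batf2*, 0.26 for *Btg2*, 0.17 for *Nr4a2* and 0.25 for *Nfkbia*. By CPM the most abundant were *Atf4* (median 405, detected in 46 of 46 wells), a translationally controlled stress factor, *Nfkbia* (99.4) and *Crem* (53.9), a cyclic AMP-responsive factor, and *Atf4* had a median rho of 0.08 with the 10 genes.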

How the data were processed

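The deposited table was made by the authors and holds estimated counts per gene and spike-in for 56 wells, with no scaling. The submitters' notes name STAR 2.5.1b and featureCounts 1.5.0-p1 for the series and build mm10; the annotation release and strand setting are not given in the sources used here. Of values above 0, 33.5% were not whole (tolerance 1e-09). CPM was computed here from gene rows without the 92 ERCC rows, in wells with at least 100000 gene counts. Symbols came from GENCODE M21 (46488 identifiers matched), as did the exon lengths behind TPM; identifier versions of *Fosb*, *Junb*, *Jund* and *Dusp1* differed from M21, so those lengths may differ.

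Spearman rho was taken over wells, for members and for all 5766 genes at 1 CPM in at least 50% of kept wells. Wells are cells of 1 sample, so no test was made. Intervals are exact Clopper-Pearson 95% intervals, and SMART-Seq reads carry no molecular identifiers, so intervals and limits cover counting error only. Median-of-ratios factors used 1231 genes with a count in every kept well, and thinning drew 100000 rounded counts per well without replacement. Doublets were not called. The code was tested on simulated data. The members and lists were chosen with earlier results of these data known, as was the split of plate columns. Promoter windows came from a RefSeq table of GRCm38.p6, which matched 8 of the 10 genes. The genes named were the 10, the 3 with the highest rho to each of them, the 6 of a 57-gene list with the highest median rho to them, its 3 most abundant, and *Prl*, *Gh* and *Pomc*; other listed genes and single wells were named after their values were seen. Python 3.11.15, numpy 2.4.6, pandas 2.3.3, scipy 1.17.1 and matplotlib 3.10.9 were used.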

Additional observations from a re-analysis of the deposited data

Results flagged for a closer look

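The 10 wells with fewer than 100000 gene counts (357 to 96289) entered no comparison, and they held reads of these genes above the limit of 3 counts. More than 3 counts were found for *Atf3* in 7 wells, for *Fos*, *Jun*, *Junb* and *Ier2* in 4 wells each, for *Egr1* in 3 and for *Fosb* in 2. The highest counts were 134 of *Atf3*, 35 of *Fos* and 32 of *Jun*, all in D12. *Fosl2*, *Jund* and *Dusp1* did not exceed 3 counts in any of the 10 wells.

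*Atf3* passed 3 counts in the most wells here, and it also had the highest CPM of the 10 genes in C10, C11, F12, H5 and H6. Its level was 1392 CPM in D12, 1767 in E6, 1072 in D5, 971 in D4 and 2007 in D11, wells with 31.7% to 42.9% spike-in. Over 5757 other genes, D12 had a median Pearson r of log2(CPM + 1) of 0.807 with those 5 wells and of 0.410 with the other 41 kept wells. E6 had 0.803 and 0.399, D5 0.748 and 0.386, D4 0.714 and 0.379, and D11, where *Atf3* was highest, 0.635 and 0.368. In A6, B4 and B5, whose spike-in share was 68.9% to 74.9%, the first value was 0.612, 0.597 and 0.589. The part of spike-in share and depth in this likeness was not tested.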

How the results depend on the processing

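Of the results with no single gene or pair, 55 kept their side under alternatives other than leaving out a well and 36 moved. The median rho stayed between 0.16 and 0.41, apart from 0.7203 in wells of 30% spike-in or more and 0.0091 in the 7 of these left without C10, C11, F12, H5 and H6. The number of pairs at 0.5, 1 of 45 over all wells, was 3 with Pearson r of log2(CPM + 1), 0 and 5 with pseudocounts of 0.1 and 10, 0 with median-of-ratios scaling, 0 without C10 and C11, 3 in *Prl*-led wells, 0 and 16 in columns 1 to 3 with 7 to 9 and 4 to 6 with 10 to 12, 12 in the latter without C10 and C11, 40 in wells of 30% spike-in or more, 5 in those 7 wells, 0 in thinned wells under 30%, 2 without H4 and 0 without C10, C11, F12, H5 and H6. Leaving out each well in turn gave 1 to 4 pairs, with 4 without E8 and 3 without B2 or B11, and a median rho of 0.2477 to 0.3125. Wells with at least 5 genes at 100 CPM numbered 8 at 50 CPM, 2 at 200 CPM, 10 with at least 3 genes, 3 under 30% spike-in and 3 without the 5 like wells. At 100 CPM, 0 genes were in at least 50% of wells. Of 30 nearest genes, 9 kept a place when thinned. The 30% limit and the choice of B12, H4, C11 alone, the 5 wells and the columns without C10 and C11 were made after seeing the data, and the cause of these shifts was not tested.

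*Pomc*-led against *Prl*-led, the genes at least 2-fold higher and lower were 5 and 3 in wells of 1000000 or more, and 3 to 5 and 3 to 6 when 1 *Pomc*-led well was left out. The ratio turned for *Jun* (2.34), *Junb* (1.151) and *Ier2* (1.518) in wells of 1000000 or more, for *Jun* (1.511) under 30% spike-in, for *Ier2* (2.333) and *Dusp1* (4.684) in columns 4 to 6 and 10 to 12, and for *Atf3* (0.9506) with median-of-ratios scaling. Leaving out 1 well gave 0.0555 to 1.129 for *Fosl2*, 0.1787 to 3.197 for *Junb* and 0.2477 to 2.581 for *Ier2*. The ratios of *Fos*, *Egr1* and *Jund* kept their direction under every alternative run. That of *Jund* was close to even in columns 4 to 6 and 10 to 12 (1.09) and was 41.6 in columns 1 to 3 and 7 to 9.

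*Gh*-led against *Prl*-led, the genes higher were 2 with median-of-ratios scaling, 0 and 1 in columns 1 to 3 with 7 to 9 and 4 to 6 with 10 to 12, 7 in wells of 1000000 or more and 2 to 4 with 1 well left out. The genes lower were 3 with hormone-free CPM, 4 with median-of-ratios scaling, 4 and 5 in the column sets, 0 in wells of 1000000 or more, 0 under 30% spike-in, 0 by mean log2(CPM + 1) and 1 to 7 with 1 well left out, the highest without B12. In columns 1 to 3 and 7 to 9, where C9 was the only *Gh*-led well, the ratio turned for *Fosl2* (0), *Jun* (0) and *Junb* (0.5065). The ratio of *Junb* turned to 0.6426 in the other columns and to 0.8883 with median-of-ratios scaling. *Egr1* turned to 1.611 in wells of 1000000 or more. With 1 well left out *Jun* ran from 0.2685 to 13.11 and *Jund* from 0.3819 to 4.737. No paired analysis was possible because the wells form 1 group and no test was made. A well of 111195 gene counts cannot show a gene under 9 CPM with 1 count.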

Other observations

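*Arc* and *Npas4*, activity-regulated genes known from neurons, were each detected at 1 CPM in 6 of 46 wells, with maxima of 1710 and 1606 CPM. *Npas4* had a median rho of -0.19 with the 10 genes. The phosphatase genes related to *Dusp1* differed in detection, with *Dusp5* in 22 wells, *Dusp6* in 6, *Dusp2* in 5 and *Dusp4* in 0 of 46, where the limit of 3 wells is a share of 6.52%. *Fosl1*, which encodes the Fos family protein Fra-1, was detected in 26 wells with a maximum of 1239 CPM and a median rho of 0.29 with the 10 genes. The orphan nuclear receptor genes *Nr4a1*, *Nr4a2* and *Nr4a3* were detected in 20, 19 and 5 wells. These genes were named after their values were seen.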
